A study of Mus musculus with 20 samples.

Results

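Fkbp5 and 8 other genes that glucocorticoids are known to induce were followed in mouse liver: Tsc22d3, Sgk1, Klf9, Klf15, Cebpd, Cdkn1a, Zbtb16 and Hif3a. They were chosen by name, as the probes whose symbol in the platform annotation is one of these genes, and Fkbp5 itself was chosen from its difference between gonadal males and gonadal females in these same arrays. All 9 genes were measured, by 10 of 23574 probes (Cebpd by 2), which makes them 9 of 11740 named genes and of 21649 features once probes of a gene are averaged. No filter on low values was used, so each of the 9 is reported whatever its value.

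Each value is the log2 ratio of one liver to a common liver pool, from 20 two-colour arrays with 1 C57BL/6J mouse each and 5 mice a group. In this cross, called FCG, Sry, the gene that starts testis formation, was removed from the Y chromosome and sits on an autosome as a transgene, so gonads and sex chromosomes are inherited apart. The gonadal males were XX Sry (XXM) and XY-Sry (XYM) and carried the transgene, and the gonadal females were XX (XXF) and XY- (XYF) and did not. All groups were fed chow with 4% fat, gonadectomized at an age of 8 weeks, and fasted for 12 h before death at 12 weeks, so every animal had been without gonads for 4 weeks and no group kept them. Gonadal type here therefore stands for the transgene and for the gonads carried until surgery. No intact animals and no measured hormone enter the comparisons.

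Glucocorticoids reach the liver bound to a plasma globulin and bind the glucocorticoid receptor, which waits in the cytoplasm with HSP90 and co-chaperones and then moves to the nucleus. FKBP51, the protein of Fkbp5, is one of these co-chaperones and lowers the receptor's affinity for its hormone, so the induction of Fkbp5 closes a short feedback loop. In the fasting liver the receptor drives genes of glucose, amino acid and lipid supply. In other tissues Fkbp5 is also a known target of the androgen and progesterone receptors.

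The windows before the starts of the genes named most often below are shown because they hold, or lack, the letters that the receptor is known to bind. RefSeq's promoter table (build GRCm38.p6) had entries for 7 of the 9 genes, with 15 starts, and none for Cebpd and Zbtb16. Searched were GNACANNNTGTNC, a relaxed form of the palindrome bound by the receptor dimer, which reads alike on both strands, and the hexamer AGAACA on both strands, which can overlap the palindrome. In the 250 bases before a start, the palindrome was found at 0.387% of 32851 mouse starts and the hexamer at 16.1%. Among the 15 starts of the 9 genes, 1 held the palindrome and 4 the hexamer, all of them starts of Sgk1 or Tsc22d3. Capitals mark a palindrome in Sgk1 and a hexamer in Tsc22d3. Each line runs 5′ to 3′ on the strand of the gene.
Fkbp5, chr17:28486150-28486399, minus strand: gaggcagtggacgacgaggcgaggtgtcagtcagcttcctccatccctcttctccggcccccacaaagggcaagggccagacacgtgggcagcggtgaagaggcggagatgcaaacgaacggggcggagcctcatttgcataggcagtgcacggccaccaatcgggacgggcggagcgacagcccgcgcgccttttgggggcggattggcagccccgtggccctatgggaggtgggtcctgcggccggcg
Tsc22d3, chrX:140600523-140600772, minus strand: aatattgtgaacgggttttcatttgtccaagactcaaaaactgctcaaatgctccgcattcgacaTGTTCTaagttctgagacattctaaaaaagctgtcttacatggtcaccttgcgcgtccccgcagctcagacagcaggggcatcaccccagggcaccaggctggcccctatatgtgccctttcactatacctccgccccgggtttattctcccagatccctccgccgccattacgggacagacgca
Cdkn1a, chr17:29090729-29090978, plus strand: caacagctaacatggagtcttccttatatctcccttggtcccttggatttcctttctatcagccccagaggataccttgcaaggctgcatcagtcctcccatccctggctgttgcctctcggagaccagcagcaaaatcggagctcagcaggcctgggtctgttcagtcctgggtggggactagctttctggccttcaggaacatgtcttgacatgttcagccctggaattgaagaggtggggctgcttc
Sgk1, 30 bases, chr10:21993694-21993723, plus strand: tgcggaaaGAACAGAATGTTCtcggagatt
The Sgk1 palindrome began at -188 from the start of 1 of 6 Sgk1 transcripts, inside the longest gene model. The Tsc22d3 hexamer began at -185 from the most upstream of 3 starts, and the windows of the other Tsc22d3 starts held neither sequence. The Fkbp5 window and both Cdkn1a windows held neither sequence. A match is a run of letters, not a shown binding site, and the absence of one says nothing of sites further away.

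Y-linked genes were read first, as a check of the labels. Eif2s3y, a subunit of a translation factor, and Kdm5d, a histone demethylase, were above the pool in all XY livers but one and far below it in XX livers. The library labelled XYF 30 stood at -3.90 for Eif2s3y and -3.16 for Kdm5d, among the XX livers, and results that it touches are given with and without it. The arrays XXF 2, XYF 3, XXF 6 and XYF 12 were wider than the others, with an SD of log2 ratios above 0.3. Array medians ranged from -0.0107 to 0.0155 on the log10 scale. Ratios to a liver pool carry no level of a gene, so the tissue could not be checked by its markers and genes cannot be ordered by abundance.

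Fkbp5 was higher in livers of gonadal males than of gonadal females, and the sex chromosomes made no difference that passed the test. The 5 XXM livers stood at -0.14, -0.04, 0.32, 0.45 and 1.17 relative to the pool. The 5 XYM livers stood at -0.66, 0.10, 0.18, 0.58 and 1.16. The gonadal females were mostly well below the pool. XXF livers stood at -1.45, -1.21, -1.19, -0.72 and 0.03, and XYF livers at -1.30, -1.04, -0.99, -0.79 and -0.38. The gonadal types overlapped: 7 of 10 gonadal males lay above all gonadal females, 8 of 10 gonadal females lay below all gonadal males, and all 10 gonadal males lay above the median of the gonadal females. XXF 6 and XYF 12, both arrays of wide spread, were the only gonadal females inside the male range, and without the wide arrays the ranges did not meet.

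The difference of Fkbp5 was 1.21 ± 0.23 on the log2 scale (limma's SE, 10 against 10 livers), or 2.32-fold. In whole liver, fewer cells of a type and less RNA per cell cannot be told apart. This contrast chose the gene, so it has no test here. Across all features, 809 of 21649 passed in this contrast (3.74%), 316 higher in gonadal males (1.46%) and 493 lower (2.28%), and 0.342% had values that did not overlap between the types. Within XX livers the difference of Fkbp5 was 1.26 ± 0.32 and within XY livers 1.17 ± 0.32. Leaving out any 1 liver kept it between 1.10 (without XYM 5) and 1.33 (without XYM 27). It was 1.16 without the library labelled XYF 30 and 1.39 without the 4 wide arrays. The group means were 0.35 ± 0.52 in XXM, 0.27 ± 0.67 in XYM, -0.90 ± 0.34 in XYF and -0.91 ± 0.59 in XXF (SD, n = 5), and within each gonadal type the neighbours did not differ beyond their spread.

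**Figure D1:**
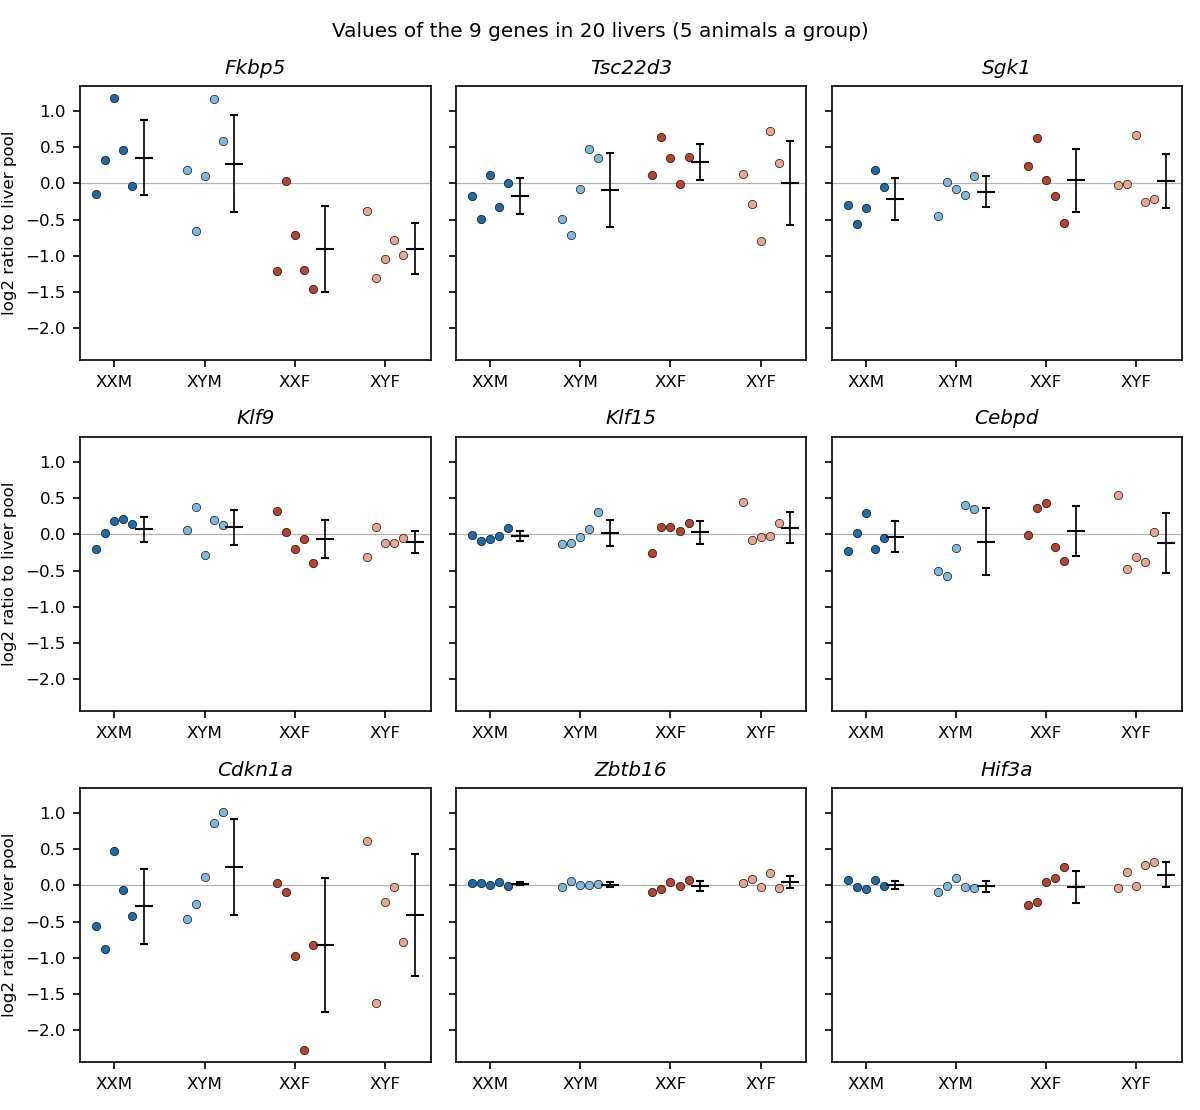
Log2 ratio to the liver pool (y axis, shared by all panels) of the 9 genes in each liver, by group (x axis); points are single livers, dashes with bars are the group mean ± SD of 5 livers. Fkbp5 is the gene whose gonadal types stand furthest apart, Cdkn1a spreads most within groups and Zbtb16 least.

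The contrasts that did not choose the genes were the effect of the sex chromosomes (XX minus XY) and the interaction, which asks whether the gonadal difference depends on them. For Fkbp5 the XX minus XY difference was 0.04 ± 0.23, with a 95% interval from -0.44 to 0.51 (limma, adjusted p = 0.984). The interaction was 0.09 ± 0.45, with an interval from -0.86 to 1.04 (limma, adjusted p = 0.9995). The width of these intervals leaves room for effects of the sex chromosomes of up to those bounds. Without the library labelled XYF 30, the XX minus XY difference of Fkbp5 was -0.01 and its interaction 0.19. None of the 9 genes passed in either contrast, where 6 of 21649 features (0.0277%) and 0 features (0.0%) passed. At an unadjusted p under 0.05, 563 features were reached in the interaction, and none of the 9 genes was among them.

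Cdkn1a encodes p21, an inhibitor of cyclin-dependent kinases that both p53 and glucocorticoids induce. It was the most variable of the 9 genes. XXM livers stood at -0.87, -0.56, -0.42, -0.06 and 0.47, and XYM livers at -0.46, -0.26, 0.12, 0.86 and 1.01. XXF livers stood at -2.27, -0.97, -0.82, -0.09 and 0.03, and XYF livers at -1.62, -0.78, -0.24, -0.02 and 0.61. The gonadal types overlapped broadly, although 8 of 10 gonadal males lay above the female median. The difference between gonadal types was 0.60 ± 0.31, the second highest of the 9 genes, and 1.52% of all features had a difference at least as far from 0. Its interval ran from -0.05 to 1.25 (limma) and included 0. The difference was 0.96 without the 4 wide arrays, 0.45 without the library labelled XYF 30 and 0.42 without XXF 35, the liver with the lowest value. Its XX minus XY difference, -0.48 ± 0.31, was the one furthest from 0 among the 9 genes and did not pass (limma, adjusted p = 0.913; interval from -1.13 to 0.17). That difference was -0.63 without the library labelled XYF 30 and -0.30 without XXF 35. The SD within groups was 0.75, larger than that of 99.4% of features, against a median of 0.15 over all features.

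Tsc22d3 encodes GILZ, a leucine zipper protein that carries part of the anti-inflammatory action of glucocorticoids. Its mean was lower, not higher, in gonadal males. XXM livers stood at -0.50, -0.32, -0.17, 0.00 and 0.12, and XYM livers at -0.71, -0.50, -0.08, 0.34 and 0.47. XXF livers stood at -0.01, 0.12, 0.35, 0.36 and 0.64, and XYF livers at -0.80, -0.28, 0.12, 0.28 and 0.73. The ranges overlapped almost entirely: no gonadal female but XYF 24 lay below all gonadal males, and 2 lay above them. The gonadal difference was -0.28 ± 0.18 and moved to -0.08 without the 4 wide arrays. The XX minus XY difference was 0.10 ± 0.18 (limma, adjusted p = 0.951) and the interaction -0.36 ± 0.35 (limma, adjusted p = 0.9995). Without the library labelled XYF 30 they were 0.07 and -0.29.

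Sgk1, a kinase that acts on ion channels and transporters, had a gonadal difference of -0.20 ± 0.14. Its values ran from -0.57 to 0.19, with a median of -0.12, in gonadal males and from -0.55 to 0.66, with a median of -0.02, in gonadal females. XYF 24 was the highest of all livers. The interval of the gonadal difference of Sgk1 ran from -0.50 to 0.10 (limma) and included 0. Sgk1 has the receptor palindrome before 1 of its starts, and whether the receptor acts there was not tested.

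Cebpd encodes C/EBP delta, a transcription factor of the acute phase and of early adipocyte differentiation. Its values ran from -0.58 to 0.41 in gonadal males, with a median of -0.11, and from -0.48 to 0.54 in gonadal females, with a median of -0.09. The mean difference between the types was -0.03 ± 0.16, while its SD within groups, 0.37, was larger than that of 92.6% of features. The spread among animals of a group was thus many times the mean difference between the types.

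The Krüppel-like factors Klf9 and Klf15 are transcription factors that the receptor induces directly in liver; Klf15 acts on amino acid use in fasting. Klf9 ran from -0.28 to 0.37 in gonadal males and from -0.40 to 0.32 in gonadal females, and its gonadal difference was 0.17 ± 0.09, or 0.09 without the 4 wide arrays. Klf15 ran from -0.13 to 0.31 and from -0.25 to 0.45, with a difference of -0.06 ± 0.07, which was 0.01 without the wide arrays.

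Hif3a, an inhibitory subunit of the hypoxia-inducible factors, and Zbtb16, the transcription factor PLZF, had the values closest to the pool in gonadal males. Hif3a ran from -0.10 to 0.10 in gonadal males and from -0.27 to 0.32 in gonadal females, with a difference of -0.07 ± 0.06. Zbtb16 ran from -0.03 to 0.05 and from -0.09 to 0.16, with a difference of -0.00277 ± 0.0332. Only 0.84% of features had a smaller SD within groups than Zbtb16 (0.057), and whether its probe responds to the transcript at all cannot be read from ratios.

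Across the 9 genes, 3 had a gonadal difference above 0 and 6 below it, with a median of -0.03 against 0.01 over all features. Fkbp5 and Cdkn1a had the largest differences, and the interval of Cdkn1a included 0. The other 7 genes lay between -0.28 and 0.17. None of the 9 genes had gonadal types free of overlap.

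**Figure D2:**
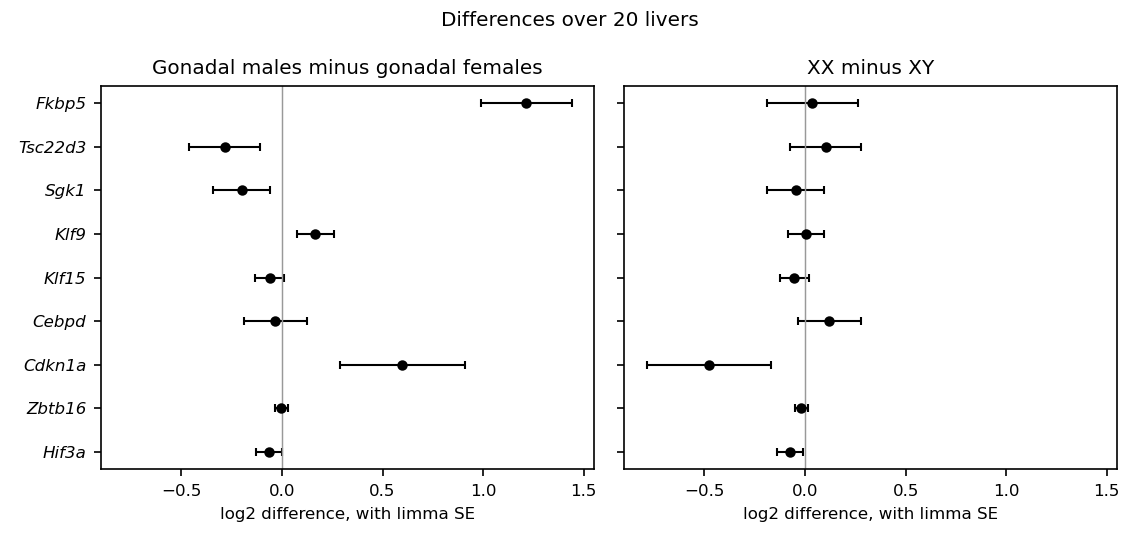
Log2 differences of the 9 genes (rows) between gonadal males and gonadal females (left) and between XX and XY livers (right), with bars of limma's SE over 20 livers. On the left Fkbp5 lies at 1.21 and Cdkn1a at 0.60, with the other 7 between -0.28 and 0.17; on the right Cdkn1a, at -0.48, lies furthest from 0.

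Animals also differed within a gonadal type, and correlation with Fkbp5 across them asks whether the genes varied together. It was computed over 10 gonadal males and over 10 gonadal females for the 8 other genes, which gives 16 correlations. Beside each permutation p stands an adjusted p from limma's slope on Fkbp5, adjusted over all features. Of the 16, none passed it. In gonadal males 83 of 21648 features passed (0.383%), a count that ran from 0 to 885 when 1 male was left out (885 without XYM 27, and 0 without each of XXM 18, XXM 9, XXM 32, XYM 19, XYM 5 and XYM 14). In gonadal females 0 passed (0.0%), with 1790 at an unadjusted p under 0.05, and 8 passed without XXF 2, 4 without XYF 3 and 0 without each other female. After each array was centred on its median, 1 passed in females.

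Cebpd had the highest r with Fkbp5 of the 8 genes in both gonadal types. In gonadal males r was 0.83 (Spearman's rho 0.78; two-sided permutation p = 0.00289 and 0.0101; limma's adjusted p = 0.055), and 0.942% of features had a higher r. The 3 males highest in Fkbp5, XXM 9, XYM 5 and XYM 14, were also the 3 highest in the mean of the 2 Cebpd probes, and XYM 27 was the lowest in both. Neither probe alone gave this order. In 1 probe XYM 14 stood at -0.05, below XXM 18 at 0.16, and XYM 19 was the lowest. In the other XXM 9 stood at -0.02, below XXM 32 at 0.16. In gonadal females r was 0.75 (rho 0.71; permutation p = 0.0104 and 0.0276; limma's adjusted p = 0.467), with 0.859% of features higher. Without the 2 livers farthest from the median of Fkbp5, r was 0.72 in males (without XYM 27 and XXM 9) and 0.55 in females (without XYF 12 and XXF 6). Leaving out 1 liver at a time kept r between 0.76 and 0.90 in males and between 0.70 and 0.83 in females. Limma's adjusted p in males was 0.0411 without XXM 31 and ran from 0.053 to 0.296 without each other male. Without the library labelled XYF 30, r in females was 0.72.

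The 2 Cebpd probes correlated with each other at r = 0.43 in males and 0.34 in females. One of them correlated with Fkbp5 at 0.88 in males and 0.64 in females, the other at 0.58 and 0.62. Both were above 0.5 in both types, although they tracked Fkbp5 more than each other.

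Tsc22d3 had r = 0.72 with Fkbp5 in gonadal males (rho 0.62; permutation p = 0.02 and 0.0604; limma's adjusted p = 0.117) and 0.43 in gonadal females (rho 0.43; permutation p = 0.218 and 0.217; limma's adjusted p = 0.707). Cdkn1a had r = 0.65 in males (rho 0.61; permutation p = 0.0419 and 0.0667; limma's adjusted p = 0.175) and 0.54 in females (rho 0.44; permutation p = 0.109 and 0.203; limma's adjusted p = 0.629). Without the 2 livers farthest from the median of Fkbp5, Tsc22d3 stood at 0.59 and 0.31 and Cdkn1a at 0.73 and 0.31, in males and females. Without the 4 wide arrays, which leaves 6 gonadal females, Cdkn1a stood at 0.23 there. Without the library labelled XYF 30, Tsc22d3 stood at 0.36 and Cdkn1a at 0.48 in females. The gonadal mean of Tsc22d3 was lower in males, where Fkbp5 was higher, while its r with Fkbp5 among animals was above 0. The interval of that gonadal difference ran from -0.66 to 0.09 (limma) and included 0, so its sign is not settled. Whether r differed between the types was not tested.

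The other 5 genes had r between -0.32 and 0.30 in males and between -0.45 and 0.48 in females, with permutation p from 0.158 to 0.813. Klf15 had 0.30 and 0.46, Sgk1 -0.13 and 0.48, Klf9 0.12 and -0.09, Zbtb16 -0.32 and -0.14, and Hif3a -0.30 and -0.45. A single liver set the value of Klf9 in males, which was 0.63 without XYM 27, the male with the lowest Fkbp5 and the highest Klf9. Zbtb16 in males was near 0 without the same liver. Sgk1 in females was 0.16 without XXF 6 and 0.67 without XYF 24. Without the 4 wide arrays, the 6 gonadal females left gave a Klf9 of -0.72, a Klf15 of 0.60, a Sgk1 of 0.04, a Zbtb16 of 0.07 and a Hif3a of 0.13, so the signs of Hif3a and Zbtb16 turned. Without XYF 12 and XXF 6, the 2 females farthest from the median of Fkbp5, Hif3a was 0.07, Zbtb16 0.17 and Klf15 0.11.

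**Figure D3:**
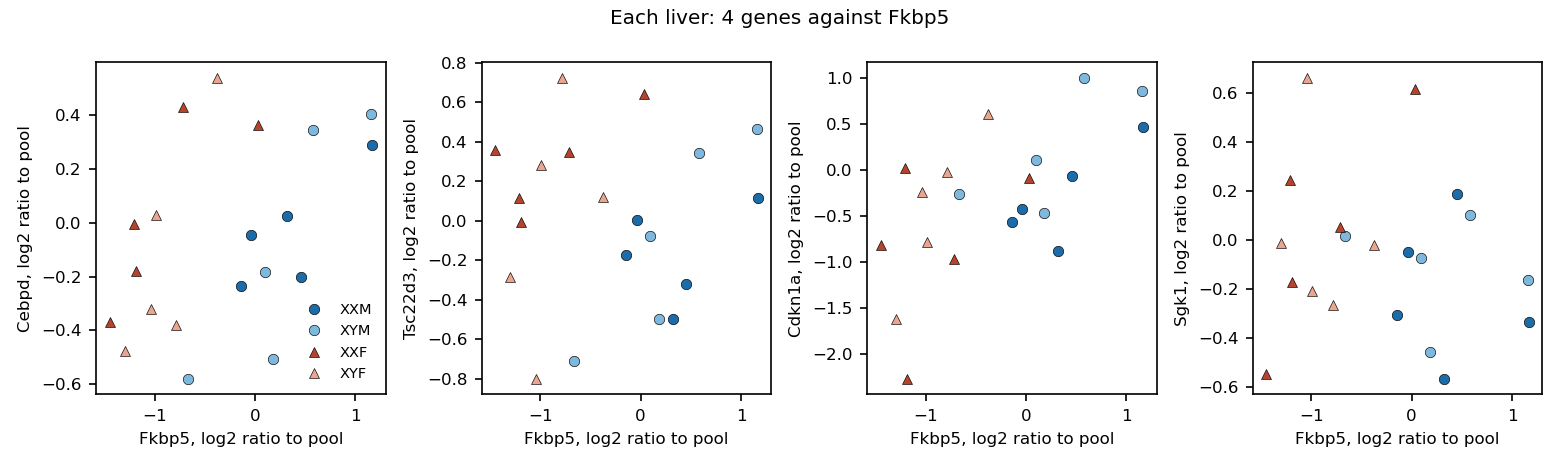
Cebpd, Tsc22d3, Cdkn1a and Sgk1 (y axes, log2 ratio to pool) against Fkbp5 (x axis, log2 ratio to pool) in each of 20 livers; circles are gonadal males, triangles gonadal females, and shade gives the sex chromosomes. The points of Cebpd lie along a separate band in each gonadal type (r = 0.83 and 0.75), while Sgk1 shows no common slope (r = -0.13 and 0.48).

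Among the 9 genes themselves, 10 of 36 pairs had r above 0.5 and 1 had r below -0.5 in gonadal males, with a median of 0.23. In gonadal females 4 of 36 lay above 0.5 and 4 below -0.5, with a median of 0.11. Of all features, 15.0% had r above 0.5 with Fkbp5 in males and 8.25% in females. The share over pairs of all features was not computed. In males, Fkbp5, Tsc22d3, Cebpd and Cdkn1a were correlated pair by pair, from 0.65 for Fkbp5 with Cdkn1a to 0.87 for Tsc22d3 with Cebpd. The same pairs in females ran from 0.22 for Tsc22d3 with Cdkn1a to 0.75 for Fkbp5 with Cebpd. Tsc22d3 with Cebpd stood at 0.33 there. Klf15 joined Tsc22d3 at 0.75, Cdkn1a at 0.66 and Cebpd at 0.64 in males, against 0.22, 0.22 and 0.55 in females. In females, Klf9 and Klf15 ran opposite to each other at -0.77, and Sgk1 and Hif3a at -0.75. These pairs share arrays and animals and are given as a description.

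With the 4 group means removed, r with Fkbp5 over all 20 livers placed Cebpd at 0.80, above all but 0.106% of 21648 features. Cdkn1a stood at 0.62 (2.3% of features higher), Tsc22d3 at 0.59 (3.13%), Klf15 at 0.38, Sgk1 at 0.21, Klf9 at 0.03, Zbtb16 at -0.17 and Hif3a at -0.38. The background is wide, since 6.62% of features lay above 0.5 and 7.81% below -0.5, and all share the same arrays. The named genes most like Fkbp5 by this measure were Itch, a ubiquitin ligase, at 0.90, Lpin1, a phosphatidate phosphatase, at 0.84, Pole4, a DNA polymerase epsilon subunit, at 0.84, Znfx1 at 0.83, Acer2, an alkaline ceramidase, at 0.82 and Mark3, a kinase, at 0.82. The most opposite were Pdcd5 at -0.90, Fgfrl1 at -0.89 and Unc13b at -0.89. Among these like and opposite genes, Lpin1 and Pole4 (0.58 ± 0.16; limma, adjusted p = 0.0449) passed in the gonadal contrast, both higher in gonadal males. Whether the call of Pole4, which lay near the threshold, holds when livers are left out was not examined. Itch had a difference of 0.16 ± 0.12 (limma, adjusted p = 0.579).

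**Figure D4:**
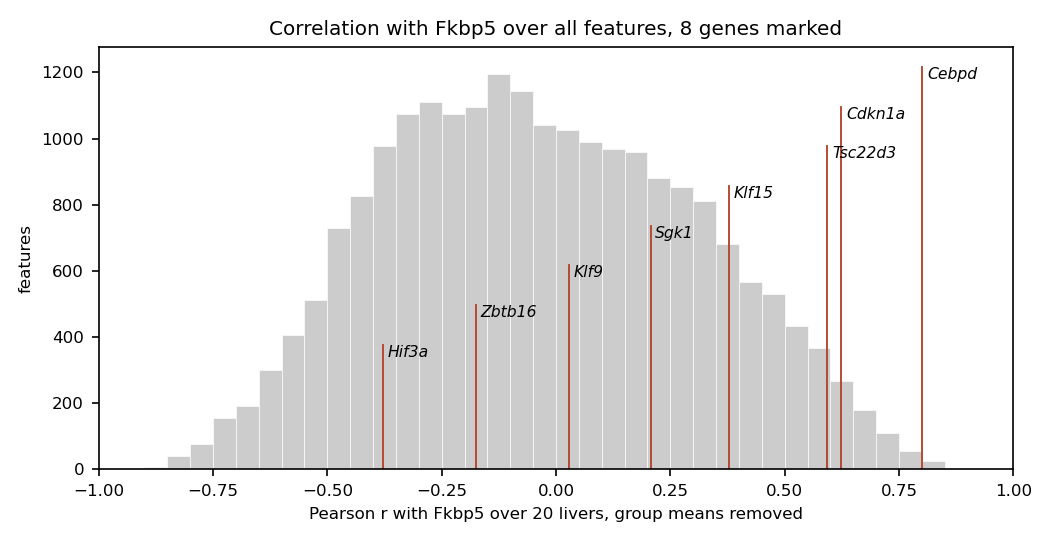
Number of features (y axis) by Pearson r with Fkbp5 (x axis) over 20 livers after removal of the 4 group means; red lines mark 8 genes, and their heights only space the labels. Cebpd, at 0.80, lies in the far right tail, and Klf9, at 0.03, in the middle.

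Other genes of glucocorticoid action were taken from 9 lists with 138 measured genes besides the 9, and 6 of the 138 passed in the gonadal contrast, where 3.74% of all features did. The receptor gene Nr3c1 did not pass: it ran from -0.23 to 0.42 in gonadal males and from -0.22 to 0.40 in gonadal females, with a difference of 0.05 ± 0.09 (limma, adjusted p = 0.841). Of 12 genes of the receptor and its chaperones none passed, including Hsp90aa1 (0.43 ± 0.24; limma, adjusted p = 0.379), the stress-inducible HSP90, and Stub1 (-0.08 ± 0.05; limma, adjusted p = 0.428). Fkbp4 encodes FKBP52, which competes with FKBP51 for the receptor complex, and its difference was -0.08 ± 0.09 (limma, adjusted p = 0.711). None of 12 other FK506-binding proteins and relatives passed, with differences from -0.12 for Fkbp8 (limma, adjusted p = 0.277) to 0.17 for Fkbp14 (limma, adjusted p = 0.298), beside 1.21 for Fkbp5. Without the 4 wide arrays 1 of the 12 passed, Fkbp9 at -0.24 ± 0.05 (limma, adjusted p = 0.0245). Of 11 receptor coregulators none passed; Ppargc1a, a coactivator of fasting, stood at 0.67 ± 0.22 (limma, adjusted p = 0.0964) and Smarca4 at -0.12 ± 0.06 (limma, adjusted p = 0.353). Ppargc1a passed without XXF 29 (limma, adjusted p = 0.0467) and with array weights (limma, adjusted p = 0.0251).

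Of 10 genes of corticosteroid metabolism and transport, Hsd3b2, a 3-beta-hydroxysteroid dehydrogenase, was lower in gonadal males by 1.33 on the log2 scale, at -1.33 ± 0.22 (limma, adjusted p = 0.00229). It belongs to a family of near-identical copies, so its probe may read several of them. Serpina6, the corticosteroid-binding globulin of plasma, ran from -1.16 to 0.45 in gonadal males and from -0.20 to 1.29 in gonadal females. It differed by -0.68 ± 0.21, which did not pass (limma, adjusted p = 0.074). Without the library labelled XYF 30 it was -0.74 ± 0.21 and passed (limma, adjusted p = 0.0497); in no other fit did it pass. Hsd3b7, an enzyme of bile acid synthesis, passed without XYF 12 (limma, adjusted p = 0.0296), without the 4 wide arrays (limma, adjusted p = 0.0105) and with array weights (limma, adjusted p = 0.0138), lower in gonadal males in each. Hsd11b1, which regenerates active glucocorticoid inside the hepatocyte, stood at 0.04 ± 0.08 (limma, adjusted p = 0.867).

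Of 33 other glucocorticoid-induced genes, 3 passed as higher in gonadal males and none as lower. They were Lpin1 (1.67 ± 0.22; limma, adjusted p = 0.000497), Irs2, an insulin receptor substrate (0.84 ± 0.21; adjusted p = 0.0357), and Got1, an aminotransferase (0.68 ± 0.18; adjusted p = 0.0387). All 3 were known from earlier results of these arrays when the list was made. Lpin1 kept its call in all 20 fits that leave out 1 liver, Irs2 in 11 (the exceptions being the fits without XXF 2, XXF 6, XYF 3, XYF 22, XXM 9, XXM 18, XXM 31, XYM 19 and XYM 27) and Got1 in 5 (without XXM 18, XXF 6, XXF 29, XYF 24 or the library labelled XYF 30), and without the 4 wide arrays Irs2 (adjusted p = 0.126) and Got1 (adjusted p = 0.129) did not pass. Tdo2, which starts tryptophan breakdown, passed as higher without XXF 6 (limma, adjusted p = 0.0365), without the library labelled XYF 30 (limma, adjusted p = 0.0185) and with array weights (limma, adjusted p = 0.0117). The median difference of the list was -0.01, against 0.01 over all features. Lpin1 and Irs2 were also the 2 of 18 genes of the fasting response that passed, and Cyp4a14 of that list passed only without XXF 29 (limma, adjusted p = 0.0472). Among animals, 8 of the 33 had residual r with Fkbp5 above 0.5 (24.2%, against 6.62% of all features), and the median r of the list was 0.30 against -0.05. Without the 4 wide arrays these shares were 33.3% and 11.5%. The list was made with earlier results of these arrays known, so these shares are a description and the excess was not tested. Besides Lpin1, and named after their values were seen, the 8 were Sult1e1 (0.75), Gadd45g (0.70), Cebpb (0.62), Zfp36 (0.56), Mertk (0.56), Dusp1 (0.50) and Tat (0.50), of which none passed in the gonadal contrast. Tfcp2l1, at -0.54, was the list's only gene below -0.5 and is likewise named after its value was seen.

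Of 27 paralogs of the other 8 genes, 2 passed, both lower in gonadal males: Tsc22d1, a leucine zipper relative of Tsc22d3 (-0.47 ± 0.10; limma, adjusted p = 0.016), and Klf16 (-0.37 ± 0.07; limma, adjusted p = 0.0094). Ddit3, a stress-induced C/EBP relative, passed as lower without XXF 6 (limma, adjusted p = 0.0395), without the library labelled XYF 30 (limma, adjusted p = 0.0383) and with array weights (limma, adjusted p = 0.0433). Hif1a passed as higher with array weights (limma, adjusted p = 0.0306). Of 14 p53 targets, chosen as a partner list to Cdkn1a, none passed; Trp53inp1 stood at 0.64 ± 0.21 (limma, adjusted p = 0.104) and Ei24 at 0.25 ± 0.09 (limma, adjusted p = 0.146). Trp53inp1 passed with array weights (limma, adjusted p = 0.0447), and Pmaip1 passed as lower after quantile normalization (limma, adjusted p = 0.0326). List genes that passed only under another setting are named after those values were seen. Of 17 clock genes none passed, and Clock (0.06 ± 0.04; limma, adjusted p = 0.498) and Per1 (0.07 ± 0.05; limma, adjusted p = 0.534) had the smallest p. In the XX minus XY contrast and in the interaction, no gene of the 9 lists passed.

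Some genes listed as markers of cells other than hepatocytes passed in the gonadal contrast, all of them lower in gonadal males, where Fkbp5 was higher. Which cells made the RNA of a listed gene, Car3 included, cannot be read from whole liver. Of all features, 2.28% were called lower. Lower in gonadal males were 6 of 12 Kupffer cell and macrophage markers (C1qa, C1qb, C1qc, Cd5l, Clec4f and Csf1r), 7 of 13 lymphocyte markers (Il2rb, Cd3g, Cd2, Cd3d, Klrb1c, Cd79b and Cd8a), 2 of 9 stellate cell markers (Col1a1 and Pdgfrb), 1 of 6 erythroid markers (Hba-a1) and 1 of 8 adipocyte markers (Car3). The difference furthest from 0 among them was that of Il2rb (-1.70 ± 0.16; limma, adjusted p = 1.67e-05). Other markers of these lists went the other way without passing. Differences lay above 0 for 6 of the 8 adipocyte markers (median of the list 0.04) and 4 of the 13 lymphocyte markers. The same held for 1 of 9 stellate cell, 1 of 6 erythroid and 0 of 12 macrophage markers. Of the 17 marker calls, 4 were lost both in some fits that leave out 1 liver and without the 4 wide arrays. C1qa passed in 7 of 20 such fits (without XYM 14, XXF 29 or any XYF liver), Cd8a in 5 (without XXF 29, XXF 35, XYF 22, XYF 24 or the library labelled XYF 30), Pdgfrb in 12 (not without XXM 9, XXM 18, XXM 31, XXM 38, XYM 5, XYM 19, XXF 2 or XYF 3) and Car3 in 15 (not without XXM 18, XXM 31, XYM 19, XYM 27 or XXF 2). Without the 4 wide arrays their adjusted p was 0.0566, 0.147, 0.152 and 0.103 (limma), and Pdgfrb moved from -0.39 to -0.19. The other 13 marker calls stood in all these fits. None of 9 hepatocyte, 8 neutrophil, 7 endothelial, 3 cholangiocyte or 5 pancreatic markers passed. The mean of the macrophage markers ran from -0.94 to 0.37 in gonadal males and from -0.27 to 1.52 in gonadal females, highest in XYF 12. The mean of the lymphocyte markers ran from -0.39 to -0.13 and from 0.04 to 0.70, and that of the hepatocyte markers from -0.16 to 0.07 and from -0.11 to 0.20. The neutrophil mean was highest in XYF 12 and ran from -1.31 to 2.43 in gonadal females, against -1.64 to -1.29 in gonadal males, so the ranges overlapped. Over 20 correlations of marker means with Fkbp5, none had a permutation p that passed after Benjamini-Hochberg adjustment. Those furthest from 0 were the neutrophil mean in males, at -0.74 (rho -0.71; permutation p = 0.0135 and 0.026; adjusted p = 0.216), and the macrophage mean in females, at 0.68 (rho 0.60; permutation p = 0.0401 and 0.0737; adjusted p = 0.216), which was 0.25 without XYF 12 and XXF 6. The part of these cells in the results for the 9 genes was not tested.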

How the data were processed

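Liver RNA of 20 mice was labelled in Cy5 and hybridized against a Cy3 liver pool, per the labels' protocols, which describe the pool as 17 chow-fed mice, while the design text describes equal portions of each sample; the pool cancels between groups. The values deposited by the authors are log10 ratios; scanner, background correction and dye normalization are not given in the sources used here. Base and direction were read from Y-linked genes: in base 10, Eif2s3y stood at 1.74 ± 0.331 times the pool (SD, n = 9 XY livers without XYF 30), in base 2 at 1.18. Values are limited at 2 (29 values), 2 are missing, and depth does not apply: the number of arrays limits the precision.

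Ratios were converted to log2. Of 23574 probes, 12662 were named through an Entrez ID and 4 through an accession in the RefSeq table (GRCm38.p6), 999 kept the platform's symbol, 48 named several genes and 9861 were unlisted. Probes of a gene were averaged, giving 21649 features. Group means were fitted with limma 3.58.1 (R 4.3.3) over 20 arrays, and the Benjamini-Hochberg adjustment of eBayes p-values ran over all features, at a threshold of 0.05. Correlations used 100000 permutations (numpy 2.4.6). The scripts were tested on simulated data.

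The genes and lists were chosen with earlier results of these data known. Named are the 9 genes, list genes that passed (up to 4) or else the 2 with the smallest p, Nr3c1, Hsd11b1, Serpina6, Fkbp4, the 6 genes most and 3 least like Fkbp5, marker genes that passed, and the label checks Eif2s3y and Kdm5d. Outside this rule are list genes named for their r with Fkbp5 and list genes that passed only under another setting, both chosen after their values were seen. The design planned to adjust the 16 correlations among themselves. That was run first and 1, Cebpd in gonadal males, passed. The adjustment over all features replaced it after that result was seen, because the genes were chosen with results known. The design also took the gonadal types to be separate in Fkbp5, which they are not. Alternatives were the leaving out of arrays, centring, quantile normalization, array weights, single probes and limited values set to missing.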

Additional observations from a re-analysis of the deposited data

Results flagged for a closer look

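Sgk1 in XYF 24, at 0.66, and Klf15 in XXF 29, at -0.25, each stood far from the other 4 livers of their group by Dixon's criterion. These were 2 flags in 36 groups of 5 livers, and chance flags about 1 in 20 groups.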

How the results depend on the processing

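No alternative run took any of the 9 genes past the threshold for the sex chromosomes or the interaction; the smallest adjusted p was 0.573, for Hif3a in the sex chromosome contrast. The gonadal difference of Fkbp5 stayed between 1.10 and 1.46. Counts over all features moved. In the gonadal contrast, 809 features became 1678 with array weights and 393 to 1129 when 1 liver was left out. For XX minus XY, 6 became 12 with array weights, 0 without the 4 wide arrays and 2 to 13 when 1 liver was left out (13 without the library labelled XYF 30). The interaction count was 0 in every fit. Of the 16 correlations, 0 passed over all features in every fit that changed the scaling or the measure, 0 to 1 when 1 liver was left out, and 1 under the adjustment among the 16 that was first planned. The r values themselves moved with scaling. After quantile normalization, r in males was 0.70 for Cebpd, 0.56 for Tsc22d3 and 0.53 for Cdkn1a. In females these were 0.60, 0.52 and 0.44, and the signs of Sgk1 (-0.03) and Zbtb16 (0.43) turned. No paired analysis was possible because the groups share no replicate number. Ratios carry no signal over background, so dim probes could not be marked, and whether p-values hold more than the spread among these animals cannot be read from the files.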
